A study of Arabidopsis thaliana with 12 samples.

Results

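Arabinogalactan proteins (AGPs) and the related fasciclin-like arabinogalactan proteins (FLAs) of the Arabidopsis root were followed through 2 lines and 2 phosphate conditions. The members were taken by locus from a list of 35 AGP and FLA genes that leaves out FLA11 and FLA12 of secondary walls, and 34 of them were among the 19802 genes of the expression table. They comprise 21 AGP and 13 FLA genes, and FLA3 (AT2G24450) was not found in the table. All 34 were kept, with no filter on low values beyond the authors' own.

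Root RNA was sequenced from Col-0, the wild-type ecotype, and from CRR OE, a transgenic line in the Col-0 background that expresses a CRR-GFP fusion constitutively under the 35S promoter. Seedlings of each line grew for 7 days with 1 mM phosphate (+Pi) or with no phosphate added beyond the residue of the medium (–Pi), which makes 4 groups of 3 libraries, each from pooled roots. CRR is a membrane protein with a DOMON and a cytochrome b561 domain that reduces ferric iron, and the study asked how its level alters the root under phosphate deficiency. CRR OE stands for 1 overexpression line, and the roots were taken whole, so that fewer cells of a type and less RNA per cell cannot be told apart in any value given here.

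The values are log2 CPM, read counts normalised to sequencing depth on a log scale, deposited as 1 mean per group. The spread between the 3 libraries behind each mean is not in them and the depth of the libraries cannot be read from them, so no difference below could be set against replicate error and none carries a test. A difference of at least 1 on the log2 scale, which is a 2-fold difference, was counted as past the fold, and the share of all 19802 genes past the same limit is given beside the members. CRR itself stood at 5.96 log2 CPM in Col-0 +Pi, 5.95 in Col-0 –Pi, 12.70 in CRR OE +Pi and 12.72 in CRR OE –Pi. SPX1, a phosphate sensor gene induced by starvation, was higher in –Pi by 6.70 log2 units in the wild type and by 6.76 in the transgenic line.

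AGPs are cell wall and plasma membrane glycoproteins. Prolyl 4-hydroxylases convert prolines of their backbone to hydroxyproline, Golgi galactosyltransferases start arabinogalactan chains on these residues, and further enzymes add arabinose, glucuronic acid and fucose. Many AGPs carry a glycosylphosphatidylinositol anchor that holds them at the outer face of the plasma membrane, and FLAs carry in addition 1 or more fasciclin domains, which are known from animal cell adhesion proteins. In roots the family is known for roles in cell expansion, root hair formation and the growth response to salt.

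The members fall into 8 classes by backbone. The 7 classical AGPs encode proteins of 127 to 191 residues and the 3 lysine-rich AGPs proteins of 185 to 278 residues, and in all 10 at least 53.6% of the residues were proline, alanine, serine or threonine. Only 41 of the 19410 coding genes of the table whose protein could be read from the RefSeq annotation, or 0.211%, reached a share of 50%, and 11 of the 34 members did. The eleventh was AGP15, an AG peptide with 50.8%. The classes rest on the backbone, so a high share in the classical and lysine-rich AGPs is part of how they were defined. The 9 AG peptides, whose precursors are among the smallest of the family, had 58 to 74 residues and a share of 38.1 to 50.8%. In the FLAs the share ran from 25.8 to 28.6% in group B (FLA15 to FLA18), from 30.8 to 39.4% in group A and from 31.3 to 43.1% in group C, and was 37.6% in FLA4 of group D, so that the upper FLAs lay within the range of the AG peptides. The median over all coding genes was 25.3%.

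The coding sequences of 7 AG peptides are shown because values of close relatives among them are set side by side below. They were read from RefSeq (TAIR10.1), whose coordinates of all 34 members equal those of the table, and run from the start to the stop codon with introns removed. Capitals mark each codon for alanine, serine or threonine that stands directly before a proline codon, together with that proline codon. AGP13 lies on chromosome 4 (13317235 to 13317414, minus strand), AGP14 on chromosome 5 (22893243 to 22893425, plus strand), AGP12 on chromosome 3 (4409087 to 4409269, plus strand) and AGP21 on chromosome 1 (20648634 to 20648810, minus strand), each in a single coding exon. AGP22 (chromosome 5, 21603715 to 21604007, plus strand), AGP16 (chromosome 2, 19018730 to 19019108, minus strand) and AGP20 (chromosome 3, 22810283 to 22810629, minus strand) have 2 coding exons.
AGP13: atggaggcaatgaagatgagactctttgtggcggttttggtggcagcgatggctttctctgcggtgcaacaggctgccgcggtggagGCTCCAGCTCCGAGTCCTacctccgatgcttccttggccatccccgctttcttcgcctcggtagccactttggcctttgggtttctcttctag
AGP14: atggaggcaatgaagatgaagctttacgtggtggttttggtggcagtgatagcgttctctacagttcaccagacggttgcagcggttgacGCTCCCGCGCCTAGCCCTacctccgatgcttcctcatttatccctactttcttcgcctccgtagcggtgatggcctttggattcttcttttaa
AGP12: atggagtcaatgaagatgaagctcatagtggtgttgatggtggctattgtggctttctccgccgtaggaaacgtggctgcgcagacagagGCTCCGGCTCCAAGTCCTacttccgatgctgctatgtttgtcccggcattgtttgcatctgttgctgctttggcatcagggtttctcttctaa
AGP21: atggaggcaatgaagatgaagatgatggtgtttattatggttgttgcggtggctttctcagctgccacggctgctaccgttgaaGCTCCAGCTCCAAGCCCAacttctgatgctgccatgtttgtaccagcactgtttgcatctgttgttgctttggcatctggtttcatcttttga
AGP22: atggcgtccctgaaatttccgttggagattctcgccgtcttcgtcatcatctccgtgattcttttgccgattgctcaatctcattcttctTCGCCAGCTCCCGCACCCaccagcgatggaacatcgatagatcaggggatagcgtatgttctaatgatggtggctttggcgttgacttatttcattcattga
AGP16: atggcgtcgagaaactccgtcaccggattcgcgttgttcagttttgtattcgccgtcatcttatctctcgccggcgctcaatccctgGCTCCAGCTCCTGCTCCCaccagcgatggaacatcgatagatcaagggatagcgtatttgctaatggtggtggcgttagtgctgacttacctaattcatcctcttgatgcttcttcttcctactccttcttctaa
AGP20: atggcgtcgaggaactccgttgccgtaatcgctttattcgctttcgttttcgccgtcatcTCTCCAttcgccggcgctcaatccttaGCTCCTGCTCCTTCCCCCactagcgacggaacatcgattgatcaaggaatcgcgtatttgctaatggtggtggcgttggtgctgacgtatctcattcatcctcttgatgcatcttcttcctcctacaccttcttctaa

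In 6 of these 7 the marked codons form a single run of 3 such pairs, and AGP20 holds a further pair upstream of it. Identity of the encoded precursors was 73.3% for AGP13 with AGP14, 75% for AGP21 with AGP12, 66.7% for AGP12 with AGP13, 86.5% for AGP16 with AGP20 and 53.9% for AGP16 with AGP22. At the level of the mRNA the longest exact run shared by AGP13 and AGP14 was 21 bases, and the longest shared by any pair of members was 53 bases, between FLA8 and FLA10. How many reads fell in such runs was not tested.

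AGP31 was the most abundant member and differed little between the groups. It encodes a wall protein with a proline-rich stretch and a PAC domain and is expressed in vascular tissue. Its mean was 9.43 log2 CPM in Col-0 +Pi, 9.41 in Col-0 –Pi, 9.42 in CRR OE +Pi and 9.59 in CRR OE –Pi, and it supplied 22.3 to 23.8% of the summed CPM of all members. The next in log2 CPM were FLA9 (AT1G03870), with 7.93, 7.99, 7.98 and 8.17 in the same order of groups, and FLA2 (AT4G12730), with 7.55, 7.67, 7.64 and 7.93. FLA7 (AT2G04780) followed with 7.24, 7.27, 7.24 and 7.36, and FLA8 (AT2G45470) with 7.25, 6.60, 7.25 and 7.20. Of these 5 members, FLA8 alone had a group, Col-0 –Pi, that stood more than 0.5 below the other 3.

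Per kilobase of the longest annotated mRNA, which allows levels of different genes to be compared, AGP31 again came first, with a mean over the groups of 476 CPM per kb. FLA9 followed with 223, AGP24 with 199, AGP15 with 125 and FLA2 with 113 CPM per kb. More than 95% of the coding genes of the table were lower per kilobase than each of these 5. At the other end AGP5, AGP17 and AGP19 had 0.80, 1.38 and 1.98 CPM per kb. These 3 were also the only members with a mean below 2 log2 CPM over the groups.

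**Figure D1:**
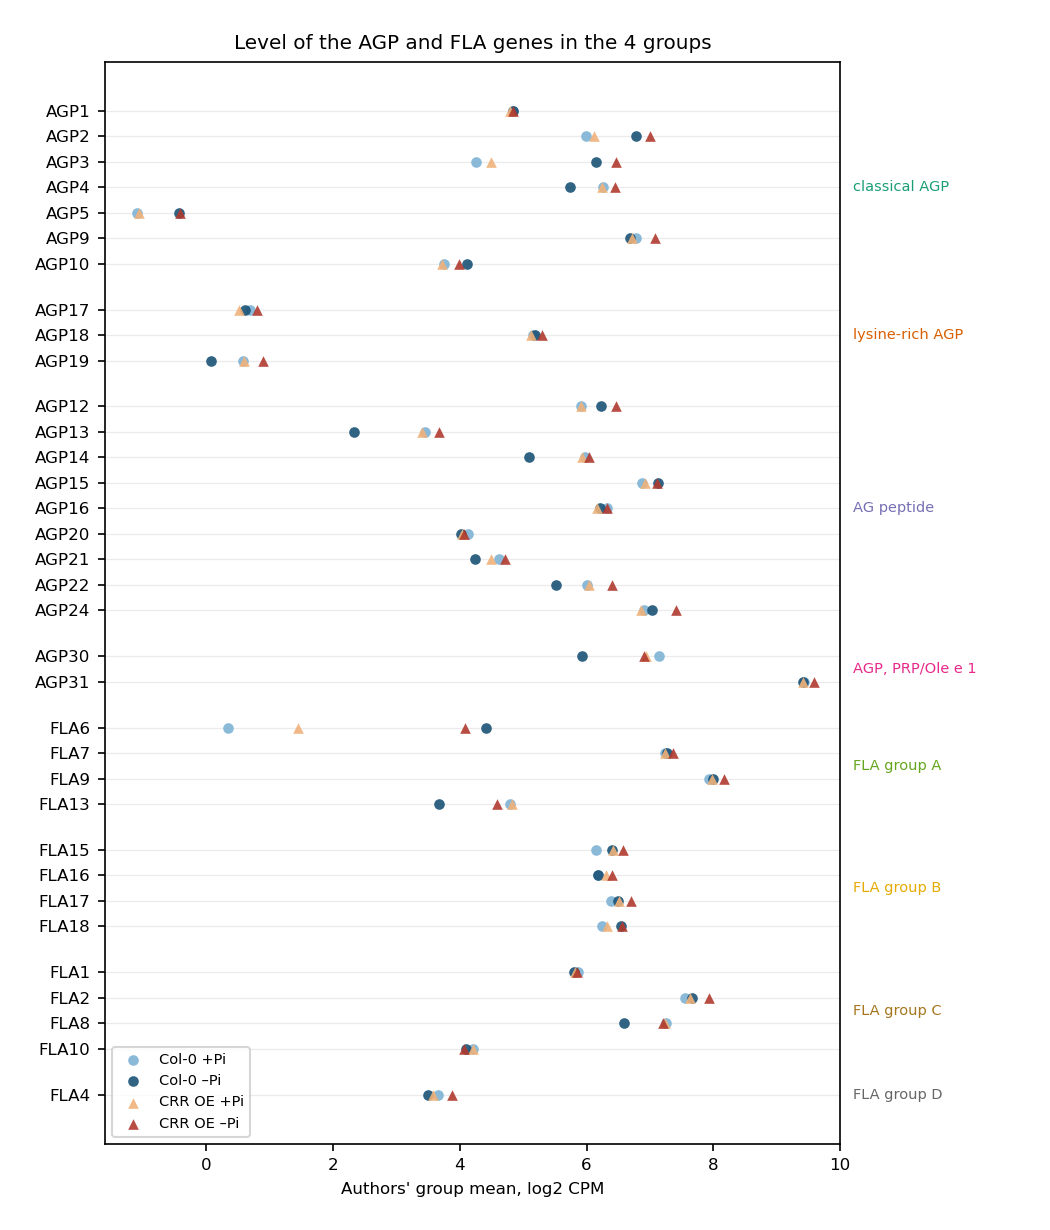
The authors' group means of the 34 members in log2 CPM (horizontal axis), in rows by class, with circles for Col-0, triangles for CRR OE, pale symbols for +Pi and dark symbols for –Pi. FLA6 and AGP3 have both –Pi symbols to the right of both +Pi symbols, whereas in AGP13, AGP14, AGP30, FLA8 and FLA13 the dark circle of Col-0 –Pi stands alone on the left.

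In Col-0 roots the members differed between –Pi and +Pi in both directions. FLA6 and AGP3 were higher in –Pi, and AGP13, AGP30 and FLA13 were lower. These 5 of 34 members were past the fold, 2 higher and 3 lower, where 5.97% of all genes were past the fold, 3.96% higher and 2% lower. The median difference of the members was -0.01 and that of all genes -0.02.

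FLA6 (AT2G20520, chromosome 2, 8840557 to 8841565, plus strand) belongs to FLA group A, whose members have a single fasciclin domain. Its mean was 0.34 log2 CPM in Col-0 +Pi and 4.41 in Col-0 –Pi, or 1.26 and 21.2 CPM, and 1.45 and 4.07 log2 CPM in CRR OE, or 2.73 and 16.8 CPM. Both –Pi means lay above both +Pi means. The difference was 4.07 in the wild type, which is 16.8-fold, and 2.63 in the overexpressor, which is 6.17-fold. In Col-0 99.6% of all genes had a smaller absolute difference. With 1 CPM added before the logarithm the differences were 3.30 in Col-0 and 2.26 in CRR OE. CRR OE exceeded Col-0 by 1.11 in +Pi and had a difference of -0.33 from it in –Pi.

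AGP3 (AT4G40090, chromosome 4, 18580827 to 18581696, minus strand), a classical AGP, stood at 4.25 log2 CPM in Col-0 +Pi and 6.15 in Col-0 –Pi, and at 4.50 and 6.47 in the overexpressor. Its –Pi means were 3.72-fold higher than +Pi in the wild type and 3.92-fold in CRR OE, so that the responses differed by 0.07 on the log2 scale. AGP2 (AT2G22470), another classical AGP, had the same order of groups with smaller steps, 5.99 and 6.78 in the wild type and 6.12 and 7.00 in the overexpressor. The mRNAs of AGP2 and AGP3 share no exact run longer than 19 bases. AGP5 (AT1G35230) was higher in –Pi by 0.67 in the wild type and 0.65 in CRR OE, at means of -1.10 and -0.43 log2 CPM in Col-0, and its difference in Col-0 shrank to 0.25 when 1 CPM was added before the logarithm.

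Markers of root hair cells were higher in –Pi as well. Of the 7 markers listed, 6 were past the fold in both lines, with a median difference of 1.68 in the wild type and 1.55 in CRR OE. Their summed level was 177 CPM in Col-0 +Pi, 612 in Col-0 –Pi, 209 in CRR OE +Pi and 639 in CRR OE –Pi, and the lowest of the 7 stood at 3.06 log2 CPM. RSL4, a transcription factor that promotes root hair growth, was the exception, with 0.53 in the wild type and 0.00 in CRR OE. The part of root hair cells in the values of FLA6, AGP3 and AGP2 was not tested.

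AGP13 (AT4G26320, chromosome 4, 13317053 to 13317640, minus strand) was lower in –Pi in Col-0. This AG peptide stood at 3.44 log2 CPM in Col-0 +Pi, 2.32 in Col-0 –Pi, 3.41 in CRR OE +Pi and 3.68 in CRR OE –Pi. Col-0 –Pi was the lowest of the 4 means and the other 3 lay within 0.3 of each other. The difference in Col-0 was -1.12, or 2.18-fold lower, and that in CRR OE 0.27. With 1 CPM added before the logarithm the difference in Col-0 was -0.99, just short of the fold.

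AGP30 (AT2G33790, chromosome 2, 14293561 to 14295353, minus strand) encodes a non-classical AGP of 239 residues with the Ole e 1 type domain that AGP31 also has, and it is known as a root-expressed gene. Its means were 7.15 log2 CPM in Col-0 +Pi, 5.93 in Col-0 –Pi, 6.95 in CRR OE +Pi and 6.91 in CRR OE –Pi. Col-0 –Pi again stood alone at the bottom, 2.33-fold below Col-0 +Pi, whereas the difference in CRR OE was -0.03. AGP31 differed by -0.02 in the wild type and by 0.17 in CRR OE.

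FLA13 (AT5G44130, chromosome 5, 17760865 to 17762089, plus strand) is a group A FLA of the same length as FLA6, 247 residues. It stood at 4.79 log2 CPM in Col-0 +Pi, 3.67 in Col-0 –Pi, 4.82 in CRR OE +Pi and 4.58 in CRR OE –Pi. The difference in Col-0 was -1.13, or 2.18-fold lower, opposite in sign to that of FLA6, and the difference in CRR OE was -0.24. The remaining members of the group, FLA7 and FLA9, differed by 0.03 and 0.06 in Col-0.

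At a lower limit of 0.5, 7 of 34 members had lower means in –Pi than in +Pi in Col-0 (AGP4, AGP13, AGP14, AGP19, AGP30, FLA8 and FLA13), where 7.68% of all genes were. In CRR OE 0 of 34 members were lower by that much, where 4.24% of all genes were. On the higher side 4 members passed this limit in the wild type (AGP2, AGP3, AGP5 and FLA6), where 8.48% of all genes did. In the overexpressor 6 members did, where 6.73% of all genes did, the additional ones being AGP12 and AGP24 with 0.56 each. Both counts include AGP5, whose 4 group means all lay below 1 CPM. AGP14 (AT5G56540), the closest relative of AGP13, had a difference of -0.88 in Col-0, AGP4 (AT5G10430), a classical AGP known as JAGGER, which acts in the pistil to prevent the attraction of further pollen tubes, -0.51, and FLA8 -0.65. AGP19 (AT1G68725), a lysine-rich AGP, had -0.50 at about 1 to 2 CPM, and -0.28 with 1 CPM added. AGP22 (AT5G53250) lay just outside, with -0.49. AGP12, which shares 66.7% of its precursor with AGP13, was higher in –Pi by 0.32, and AGP21, an AG peptide that acts in root hair fate, had -0.38.

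In CRR OE the response to –Pi held 2 members past the fold, FLA6 and AGP3, both higher. Past the fold were 4.03% of all genes, 3.18% higher and 0.853% lower. The median of the members was 0.20, where that of all genes was -0.01, and 30 of 34 were above 0, where 46.1% of all genes were. All 7 classical AGPs, all 3 lysine-rich AGPs and all 9 AG peptides had a difference above 0, within 0.02 to 0.56 in the AG peptides. The 4 members below 0 were AGP30, FLA8, FLA10 and FLA13, of which FLA13 had the largest size, -0.24.

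**Figure D2:**
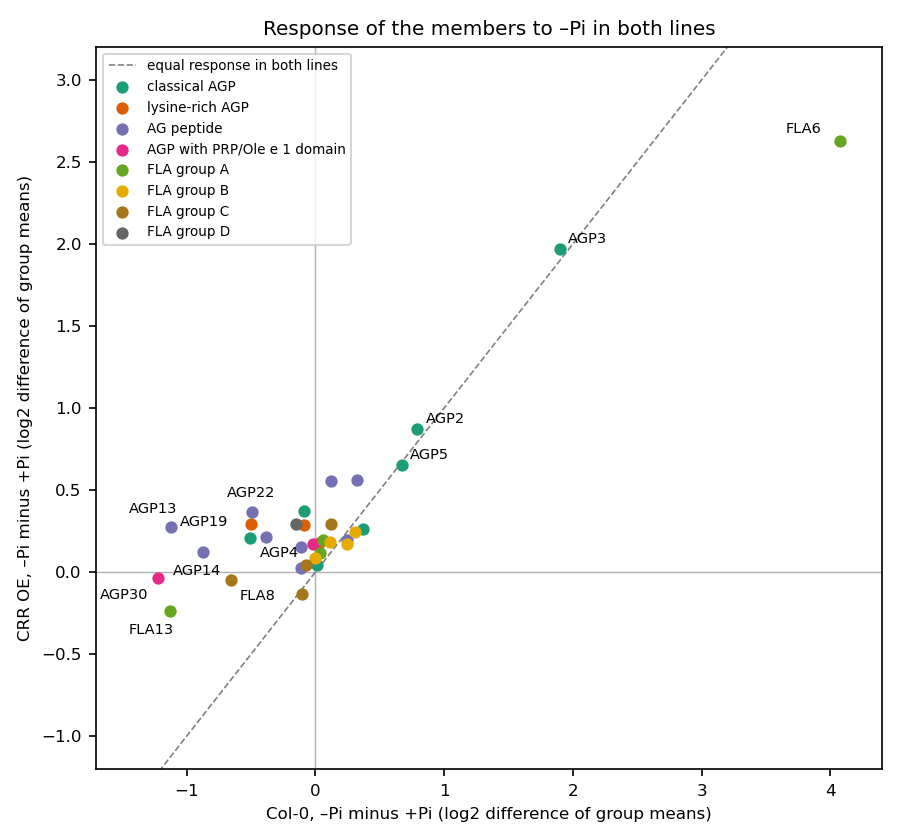
Log2 difference of –Pi and +Pi group means in Col-0 (horizontal) and in CRR OE (vertical) for each of the 34 members, coloured by class, with a dashed line where both responses are equal. AGP3, AGP2 and AGP5 lie close to the line and FLA6 below it, and the members on the left with a Col-0 difference of -0.5 or less lie between -0.24 and 0.29 in CRR OE.

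In +Pi the means of the lines lay close together. FLA6 was the only member past the fold in +Pi, at 1.26 CPM in the wild type and 2.73 CPM in the overexpressor, and with 1 CPM added its difference was 0.72. In all genes 0.288% were past the fold, 0.126% higher and 0.162% lower in CRR OE. The other 33 members lay between -0.20 (AGP30) and 0.26 (FLA15). Of the 34, 17 were above 0, where 49.9% of all genes were, and the median of the members was -0.00. FLA group B had 4 of 4 members above 0, from 0.08 (FLA18) to 0.26 (FLA15).

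In –Pi CRR OE had higher means than Col-0 for most members. Of the 34, 29 (85.3%) were above 0, where 50.1% of all genes were, and the median was 0.21 against 0.00 for all genes. Past the fold was AGP13, 2.56-fold higher (1.36), where 1.45% of all genes were past it, 0.702% higher and 0.747% lower. At the limit of 0.5, 8 members were higher in CRR OE and 0 lower, where 3.68% of all genes were higher and 3.1% lower.

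These 8 members come from 6 classes. Among the AG peptides, AGP13 was followed by AGP14, with 5.09 and 6.05 log2 CPM in the wild type and the overexpressor (0.95), and AGP22, with 5.52 and 6.41 (0.89). AGP30 was higher in CRR OE by 0.99, or 1.98-fold. The classical AGP4 had 5.74 and 6.45 (0.71) and the lysine-rich AGP19 0.07 and 0.89 (0.81). With 1 CPM added before the logarithm AGP19 had 0.47, below the limit. Of the genes with a mean of 0 to 2 log2 CPM, as AGP19 has, 9.47% were higher by at least 0.5. Among the FLAs, FLA13 was higher by 0.92 and FLA8 by 0.60. This comparison and the response of Col-0 share the Col-0 –Pi libraries, so that a low mean there enters both. Likewise the CRR OE –Pi mean enters this comparison, the response of CRR OE, the difference of the responses and the summed level. Their values are therefore not separate results.

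Level matters for such counts, since low genes differ more. Among the 22 members with a mean of at least 5 log2 CPM, 5 were higher by at least 0.5 in CRR OE –Pi and 0 lower. Of the 7253 genes at that level, 1.19% were higher and 0.538% lower by that much. The 95th percentile of their absolute difference was 0.34, which AGP4, AGP9, AGP14, AGP22, AGP24, AGP30 and FLA8 exceeded.

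The 5 members below 0 between the lines in –Pi were FLA6, AGP10, AGP1, AGP15 and FLA10. FLA6 had -0.33, a size above that of 86.0% of all genes, and AGP10 -0.13, while AGP1, AGP15 and FLA10 lay between -0.03 and 0. AGP1 (AT5G64310) was the most even member, with 4.84, 4.85, 4.79 and 4.83 log2 CPM in Col-0 +Pi, Col-0 –Pi, CRR OE +Pi and CRR OE –Pi. In FLA group B the differences in –Pi ran from 0.02 to 0.22. FLA4 (AT3G46550), also known as SOS5, which is needed for root growth under salt, had 3.50 log2 CPM in Col-0 –Pi and 3.87 in CRR OE –Pi (0.37). Of the lysine-rich AGPs, AGP17, needed for Agrobacterium binding to roots, had 0.20 and AGP18, which acts in female gametogenesis, 0.12.

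**Figure D3:**
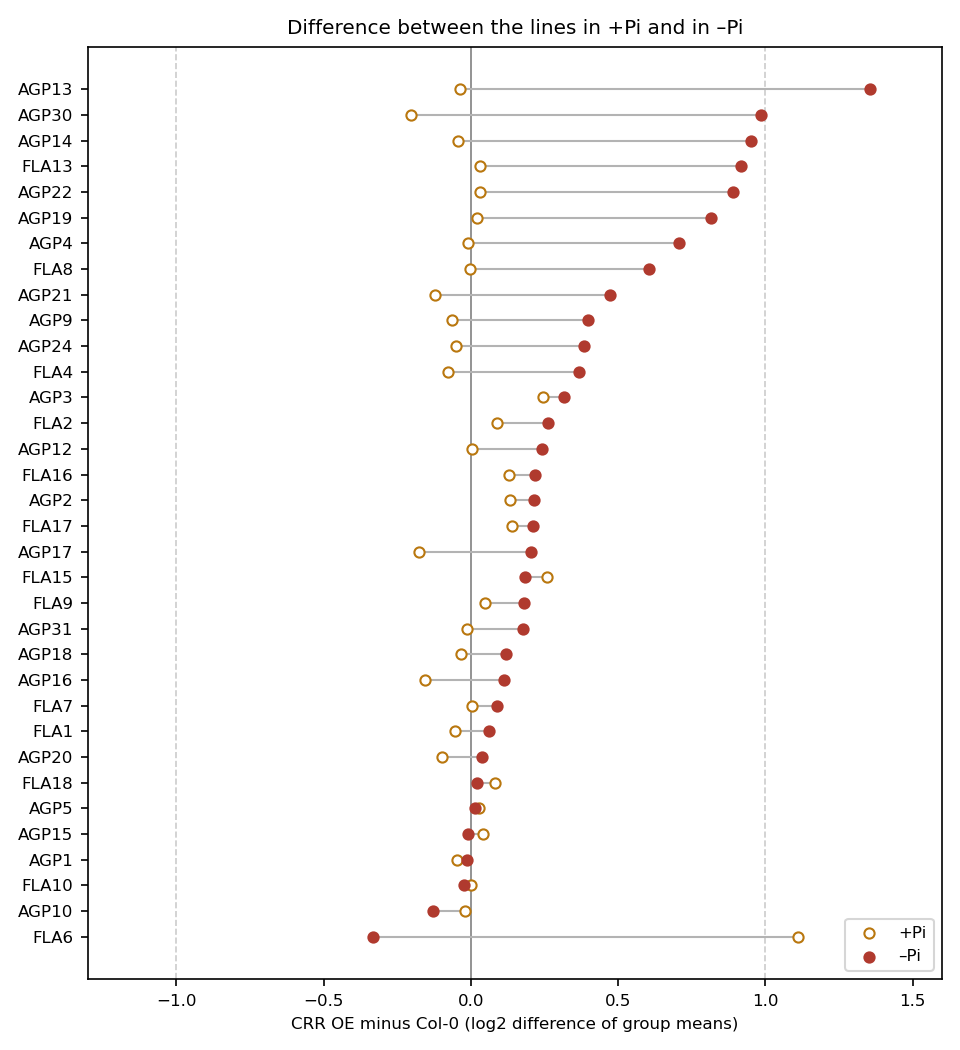
Log2 difference of CRR OE and Col-0 group means in +Pi (open circles) and in –Pi (filled circles) for each of the 34 members, ordered by the value in –Pi, with dashed lines at a 2-fold difference. Filled circles reach 1.36 in AGP13 and are above 0 in 29 members, whereas every open circle except that of FLA6 lies between -0.20 and 0.26.

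**Figure D4:**
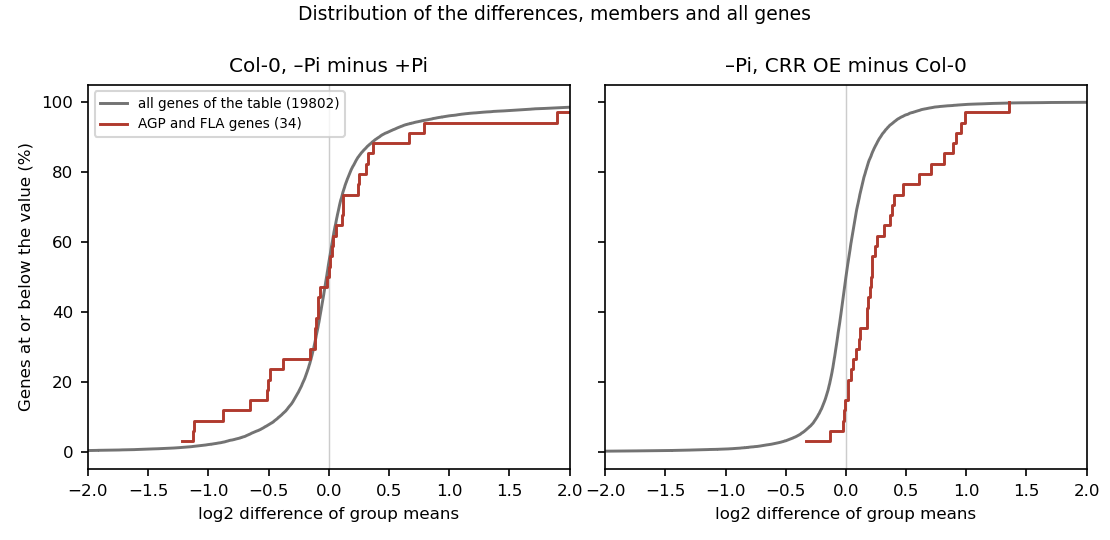
Cumulative share of genes (vertical, in percent) by log2 difference (horizontal), for the 34 members in red and all 19802 genes in grey, in the Col-0 response on the left and between the lines in –Pi on the right. On the left the curves cross near 0, and FLA6 at 4.07 lies beyond the axis, while on the right the curve of the members lies to the right of that of all genes, with medians of 0.21 and 0.00.

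The difference of the responses, CRR OE minus Col-0, was past the fold in 3 members, where 2.15% of all genes were, 1.09% above and 1.06% below 0. AGP13 had 1.39 and AGP30 1.19, and FLA6 had -1.44. With 1 CPM added before the logarithm these values were 1.24, 1.18 and -1.04. AGP14 came close, with a value that rounds to 1.00 but lies under the limit, followed by FLA13 with 0.89, AGP22 with 0.86, AGP19 with 0.79, AGP4 with 0.72 and FLA8 with 0.61. AGP21 had 0.60. Altogether 27 of 34 members were above 0, where 50.9% of all genes were, with a median of 0.16 against 0.00 for all genes. The value of FLA6 came mostly from +Pi, where the lines differed by 1.11 at 1.26 and 2.73 CPM, against -0.33 in –Pi. Those of AGP13 and AGP30 came mostly from –Pi, with 1.36 and 0.99 there against -0.04 and -0.20 in +Pi.

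Values of closely related AG peptides are set side by side here, and whether relatives differ was not tested, as no spread is known. AGP13 and AGP14, shown first among the sequences above, had differences of the responses of 1.39 and 1.00, and AGP21 and AGP12, 75% identical to each other, 0.60 and 0.24. AGP16 and AGP20, 86.5% identical, had 0.27 and 0.14, and AGP22, 53.9% identical to AGP16, 0.86. All 7 hold a run of 3 alanine or serine codons each followed by a proline codon. AGP16 has alanine alone in the run and AGP22 has serine first, and the others share the order alanine, alanine, serine.

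Summed over the members, the level was 2894 CPM in Col-0 +Pi, 2873 in Col-0 –Pi, 2913 in CRR OE +Pi and 3456 in CRR OE –Pi. The last exceeded the other 3 also without AGP31, at 2686 CPM against 2192 to 2229 CPM. AGPs reached 2103 CPM in CRR OE –Pi against 1704 to 1739 CPM in the other groups, and FLAs 1353 against 1156 to 1208 CPM.

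Of 22 genes for the enzymes that build the glycan and for receptor kinases, listed by locus, 21 were in the table. In the 4 comparisons and the difference of the responses 0 of them were past the fold, where 0.288 to 5.97% of all genes were. In –Pi their difference between the lines ran from -0.21 to 0.13, with a median of -0.04, where the median of the 34 members was 0.21. In the response of Col-0 to –Pi the 21 genes ran from -0.08 (GALT29A) to 0.47, with a median of 0.07. The highest was FUT4, a fucosyltransferase of arabinogalactan, followed by P4H5, a prolyl 4-hydroxylase that acts in root hairs, with 0.45. Next came GALT6, a galactosyltransferase that starts the chains, with 0.37. FEI1 and FEI2, receptor kinases that act with FLA4, differed between the lines in –Pi by 0.09 and 0.06.

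Among the markers of root cell types, those of xylem had higher means in the overexpressor than in the wild type under –Pi. The median of the 7 was 0.59, with 0 past the fold, and their summed level was 336 CPM in Col-0 +Pi, 261 in Col-0 –Pi, 349 in CRR OE +Pi and 385 in CRR OE –Pi. XCP2, a xylem protease, had 0.69, and the cellulose synthases CESA4, CESA7 and CESA8 had 0.59 to 0.61. XCP1 had 0.44, while MYB46 and VND7 had only 0.15 and 0.11. The lowest of the 7 in any group stood at 1.07 log2 CPM. The 7 endodermis markers had a median of -0.11 in the response of Col-0 and of 0.14 between the lines in –Pi. They ran from -1.06 (CASP5) to 0.32 (MYB36) in the former and from -0.22 (MYB36) to 0.52 (CASP5) in the latter, and CASP5, a Casparian strip protein, had the lowest level of them, 0.42 log2 CPM in Col-0 –Pi. Between the lines in –Pi dividing cell markers had a median of 0.07, from -0.19 to 0.22, and root cap markers one of -0.31. Root cap markers had a median of -0.21 between the lines in +Pi as well. In the response of Col-0 the medians were -0.10 for dividing cells and 0.16 for the root cap. Whether the share of xylem or endodermis cells has a part in the values of AGP13, AGP14, AGP30 or FLA13 was not tested. Shoot markers, 4 of 5 found, summed to 23.5 to 32.2 CPM, and their differences between the lines in –Pi ran from -0.71 (LHCB2.1) to 2.29 (RBCS2B), the last at -4.10 log2 CPM in the wild type and -1.81 in the overexpressor.

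**Figure D5:**
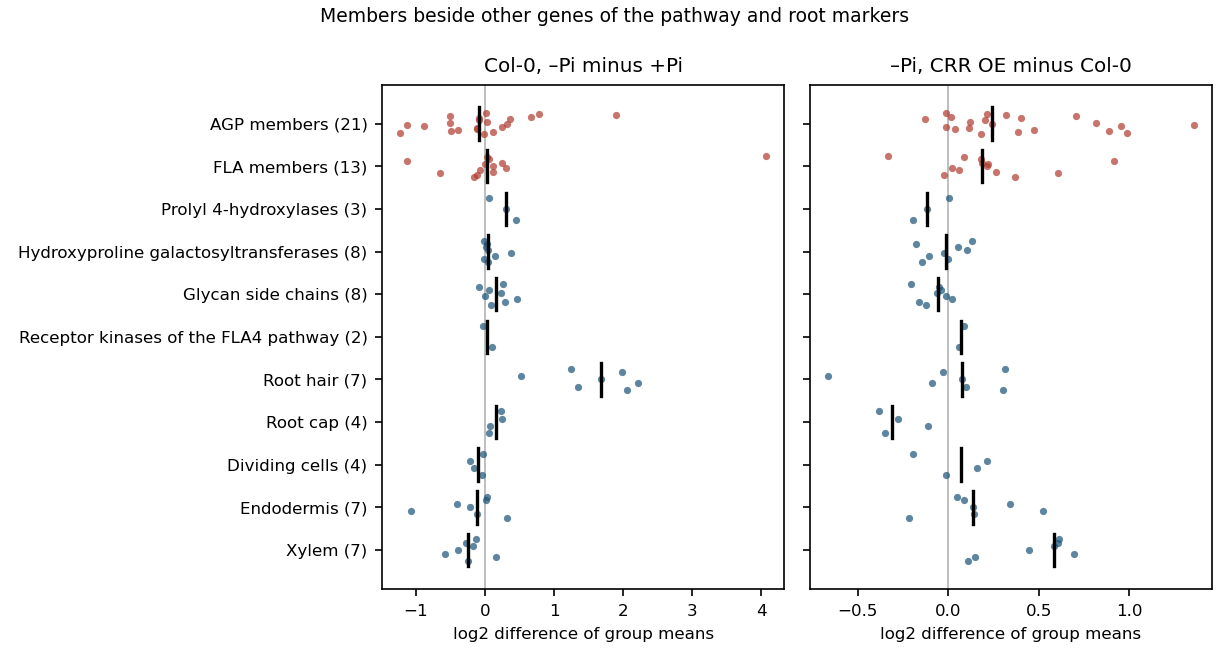
Log2 differences of single genes (dots) and their medians (black bars) for AGP and FLA members in red and for listed genes of glycan synthesis, receptor kinases and root cell types in blue, in the Col-0 response on the left and between the lines in –Pi on the right. Root hair markers stand out on the left with a median of 1.68, and on the right xylem markers have the highest median, 0.59, above the AGP members with 0.24 and the FLA members with 0.18.

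The 300 bases before the annotated start of each gene were searched on both strands for GNATATNC, the site known as P1BS that the phosphate starvation regulator PHR1 binds. The motif is its own reverse complement, so each match was found on both strands and counted once. It was in 2 of the 34 members, where 6.60% of 19782 such stretches held it. The members were AGP9 and AGP17, and 40 bases around each match are shown, from RefSeq (TAIR10.1) in the direction of the gene, with the match in capitals, at chr2:6399183-6399222 for AGP9 and at chr2:9844080-9844119 for AGP17, both on the plus strand.
AGP9: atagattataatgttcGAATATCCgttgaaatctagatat
AGP17: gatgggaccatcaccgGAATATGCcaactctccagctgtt

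Neither gene was past the fold in any comparison. AGP9 (AT2G14890), a classical AGP, stood at 6.78, 6.69, 6.71 and 7.09 log2 CPM in Col-0 +Pi, Col-0 –Pi, CRR OE +Pi and CRR OE –Pi, and AGP17 (AT2G23130) at 0.69, 0.60, 0.52 and 0.81. The matches ended 199 and 31 bases before the start of the gene. FLA6 and AGP3, which had the highest –Pi responses of the family, had no match in this stretch.

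Overlapping genes could enter some values, since the sources used here do not state whether reads were counted by strand. AGP21, AGP16, FLA16, AGP10, AGP4 and AGP19 overlap a gene on the opposite strand, which covers 20.7% (AGP16) to 85.2% (AGP21) of the member. The partners of AGP16 and FLA16 were in the table, at 3.54 to 3.64 and -0.26 to 0.40 log2 CPM, and the partners of the others were not. AGP13, AGP14, AGP22, AGP30, AGP3, FLA6, FLA8 and FLA13 overlap no annotated gene.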

How the data were processed

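Root RNA-seq libraries of Col-0 and CRR OE in +Pi and –Pi (3 per group, 12 in all) were analysed. According to the study's methods and the submitters' processing notes, the authors trimmed reads with Cutadapt 1.8, removed ribosomal reads, aligned to TAIR10 with STAR 2.5.3a, counted per gene with HTSeq 0.9.1, dropped genes that reached 1 CPM in no sample, and normalised with edgeR 3.24.3. RSEM 1.2.31 and R 3.5.3 are also named in the notes. The labels name a column kit for RNA extraction and the methods Trizol. The deposited values are log2 CPM, as 1 mean per group by the authors, with 0 columns per library. Another 5 deposited tables hold the authors' fold changes and p-values, and none of these was used.

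Differences of group means and the difference of responses were computed with Python 3.11.15, pandas 2.3.3 and numpy 2.4.6, checked on simulated data, with no test. Gene models, coding sequences and upstream bases came from RefSeq (TAIR10.1) through Biopython 1.88. Gene positions agreed for 19781 of 19783 matched loci. Plots were drawn with matplotlib 3.10.9.

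The members and all lists were chosen with earlier results of these data known. Values in all groups are given for members past the fold in any comparison and for the 5 highest in level, others by counts, ranges and examples. Members outside these limits were also named where a count of 10 or fewer held them or a sequence or overlap singled them out, and these were picked after their values were seen. Alternatives were 1 CPM added before the logarithm, subtraction of the median of all genes, a minimum mean of 2 log2 CPM, and limits of 0.5 and 1.5.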

Additional observations from a re-analysis of the deposited data

How the results depend on the processing

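At a limit of 0.5 the members past it numbered 11 for –Pi against +Pi in Col-0, 6 in CRR OE, 8 between the lines in –Pi and 10 for the difference of the responses, where 16.2%, 11.0%, 6.78% and 9.10% of all genes were past it. At a limit of 1.5 they numbered 2 for Col-0, and 0 between the lines in +Pi, 0 between the lines in –Pi and 0 for the difference of the responses, where 3.18%, 0.0606%, 0.525% and 0.712% of all genes were past it. With 1 CPM added before the logarithm, 0 members were past the fold between the lines in +Pi, and AGP13 left the count in Col-0. Of 170 single differences of members, 10 moved by 0.2 or more or crossed the fold with 1 CPM added, all in AGP5, AGP13, AGP19 and FLA6, and 0 did so when the median of all genes was subtracted. A minimum mean of 2 log2 CPM left out AGP5, AGP17 and AGP19. In these runs no difference past the fold changed sign. No paired analysis was possible because the deposited columns are group means that carry no replicate number, and for the same reason no replicate could be left out.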
